A study of Mus musculus with 7 samples.

Results

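The 39 genes described here encode the folding machinery of the endoplasmic reticulum (ER) and the unfolded protein response that regulates it. They were named as a list by function, in classes of chaperones, disulfide-forming enzymes, stress sensors with their factors, and ER degradation genes, with 2 translocon subunits. The rule that picks them uses no measured value, although the list was drawn up with earlier results of these data known. All 39 were found among the 52636 genes of the count table and all 39 were among the 15512 genes with enough counts to test. The data are gene counts of polyadenylated RNA from mouse liver endothelial cells isolated by flow sorting, in 3 control libraries and 4 libraries of a c-Maf knockout (KO), the transcription factor encoded by Maf. The labels give neither the deleted part of Maf, the line or driver used to delete it, nor the age, strain or sex of the mice, so it is not known what else the controls share with the KO. They also do not say that each library is a separate animal. The p-values then measure only how much these 7 libraries vary, and that variation may be technical.

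Proteins that enter the secretory pathway cross the ER membrane through the Sec61 translocon and fold in the lumen with the help of Hsp70- and Hsp90-type chaperones, calcium-binding lectin chaperones and enzymes that form disulfide bonds. Proteins that fail to fold are returned to the cytosol and degraded. The sensors IRE1 (Ern1), PERK (Eif2ak3) and ATF6 respond to unfolded protein in the lumen, and through the factors XBP1, ATF4 and cleaved ATF6 they raise transcription of chaperone and degradation genes. Liver sinusoidal endothelium makes large amounts of secreted and surface protein, among them scavenger receptors, which fold in this compartment.

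Levels are given as CPM, counts brought to a common library total with TMM factors (trimmed mean of M-values), and "rose" and "fell" refer to the KO against the control at an adjusted p under 0.05 in edgeR's quasi-likelihood test over all 15512 genes. Libraries held 24772716 to 32960007 counts. Maf stood at 1664, 2088 and 2147 CPM in the controls and at 28.9, 159, 124 and 37.7 CPM in KO libraries 1 to 4, which is 1.47% to 8.08% of the control mean. All 8 markers of endothelium in general were detected in every library. They summed to 12458 to 13758 CPM in controls and 8123 to 10888 CPM in KO libraries. Of these 8, 4 fell and 1 rose, at a median log2 fold change of -0.51. The 8 sinusoidal markers summed to 33424 to 37421 CPM in controls and 5711 to 9523 CPM in KO libraries, and all 8 fell. Of other cells, 6 of 10 hepatocyte markers rose (summed 284 to 337 CPM in controls and 388 to 1480.3 CPM in KO libraries, with KO 1 at 1480.3 and KO 4 at 722). Among 8 stellate cell and fibroblast markers 5 fell, with sums of 15.2 to 165 CPM in controls and 7.29 to 47.6 CPM in KO libraries. The list of B cells and plasma cells, the latter rich in ER chaperones, summed to 17.8 to 28.6 CPM in controls and 20.7 to 26.7 CPM in KO libraries, and 1 of its 6 tested genes rose and 1 fell. Macrophage markers summed to 88.8 to 218 CPM in controls and 34.5 to 161 CPM in KO libraries and 1 of 10 fell. Platelet markers summed to 24.1 to 27.6 CPM in controls and 35.04 to 49.4 CPM in KO libraries, and 4 of 6 tested rose and 1 fell. Erythroid markers reached at most 50.3 CPM, neutrophil markers 6.67 CPM, cholangiocyte markers 13.8 CPM and T and NK cell markers 0.789 CPM in any library, with Ly6g, Krt7, Cd3e, Nkg7 and Klrb1c at 0 counts in 2 or more of them. All 10 cell cycle genes rose, from sums of 32.4 to 76.0 CPM in controls and 498 to 573 CPM in KO libraries. Of 14 genes induced by tissue dissociation 7 rose and none fell, with sums of 8237 to 10679 CPM in controls and 11948 to 24402 CPM in KO libraries. The part of these shifts in the ER results was not tested.

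The ER genes moved in both directions, with falls outnumbering rises and with the lumenal Hsp70 gene Hspa5 going the opposite way from the chaperone genes Hsp90b1, Calr, Canx and Dnajc3. Of the 39 genes 7 rose (17.9%), 19 fell (48.7%) and 13 did not pass. Over all genes tested, 45.2% were called, 23.0% as rises and 22.2% as falls. For 28 of the 39 genes control and KO libraries were fully separated, 5 with every KO library higher and 23 with every KO library lower, against 50.3% of all genes tested (25.6% higher and 24.7% lower). The median log2 fold change was -0.35 over the 39 genes and 0.04 over all genes tested. Scaling by library totals raised both medians, to -0.09 and 0.31, and then 9 of the 39 rose and 16 fell, where 53.8% of all genes were called (41.1% as rises and 12.8% as falls). The ER median minus that of all genes was -0.40 under both scalings. A change of scaling moves all genes by nearly the same amount, so it could hardly alter this difference. Rises made up 26.9% of the ER calls with TMM and 36.0% with library totals, against 50.8% and 76.3% of the calls over all genes. Without KO 1 and KO 4, the libraries with the most hepatocyte RNA, the ER median was -0.19 and that of all genes 0.02, a difference of -0.21, with 6 rises and 18 falls, while 30.2% of all genes were called (14.5% as rises and 15.7% as falls). In lane 5 alone, the sequencing lane of 2 controls and 3 KO libraries, 6 rose, 22 fell and the median was -0.48, while 43.6% of all genes were called (19.4% as rises and 24.2% as falls). Lane 4 held only control 3 and KO 3, so no test could be run within it. In bulk RNA, a change in the number of cells of a type and a change in RNA per cell cannot be told apart.

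**Figure D1:**
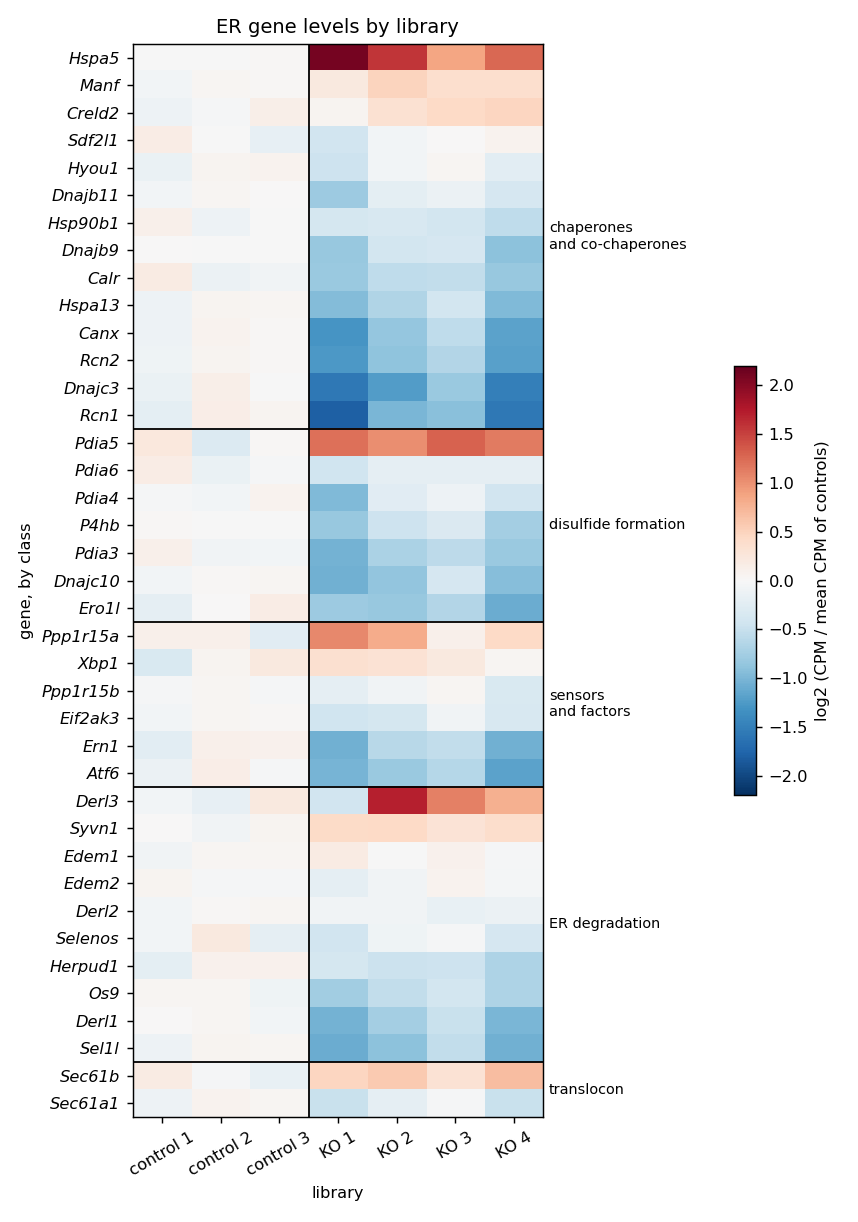
Heat map of the 39 ER genes (vertical axis, grouped by role) in the 7 libraries (horizontal axis), coloured by the log2 ratio of CPM to the control mean. Hspa5, Pdia5, Ppp1r15a, Syvn1, Sec61b, Manf, Creld2 and Xbp1 are above the control mean in all 4 KO libraries, while most genes are below it. For 17 of the 19 genes that fell KO 3 is the highest KO library.

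**Figure D2:**
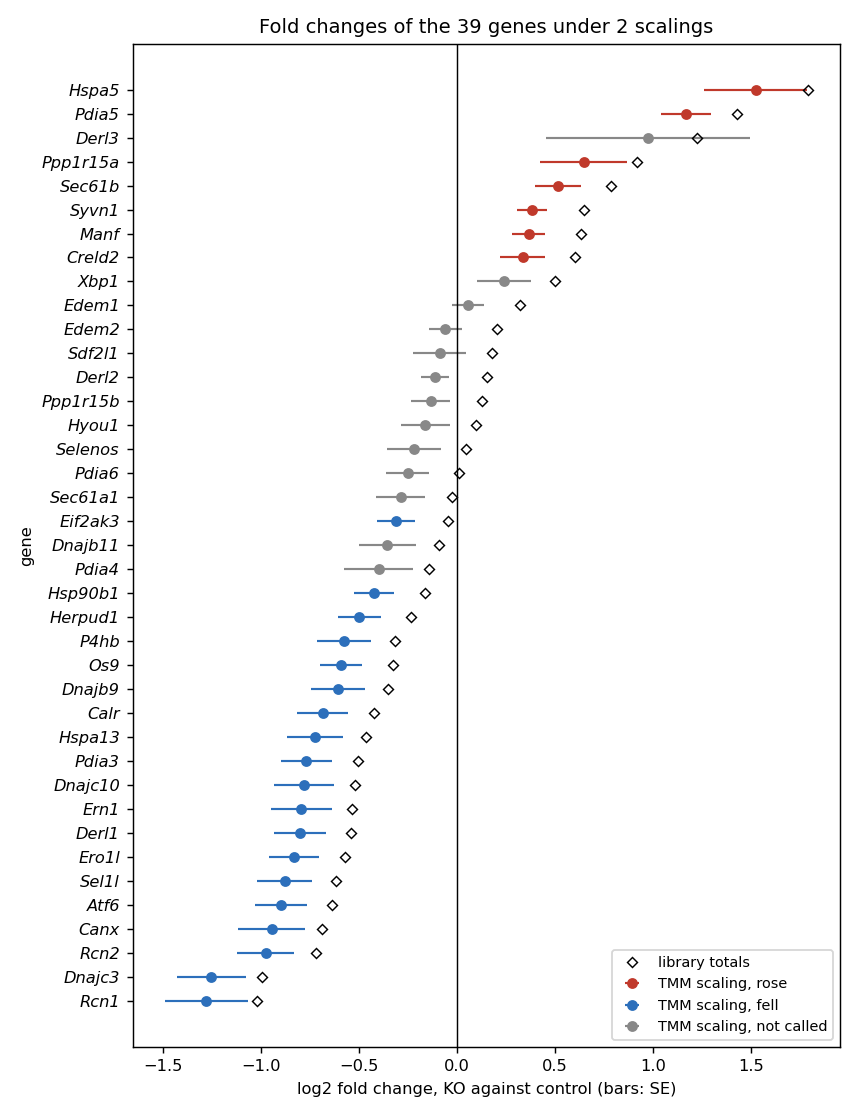
Log2 fold changes of KO against control (horizontal axis) for the 39 genes (vertical axis), with bars of 1 SE, coloured by call. They run from -1.28 for Rcn1 to 1.52 for Hspa5, and 29 of the 39 are below 0.

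Among 14 chaperones and co-chaperones, 3 rose (21.4%), 8 fell (57.1%) and 3 did not pass, where 23.0% of all genes rose and 22.2% fell. Hspa5 (ENSMUSG00000026864; chromosome 2, 34771970 to 34777547, plus strand, GRCm38) encodes BiP, the ER Hsp70 that holds unfolded chains and keeps the sensors inactive. Controls 1 to 3 held 597, 594 and 609 CPM, and KO libraries 1 to 4 held 2585, 1782, 1094 and 1439.5 CPM. Every KO library was above every control, and the controls lay within a narrow range while the KO libraries were spread widely, with KO 1 highest and KO 3 lowest. Hspa5 rose 2.87-fold, from 600.1 ± 7.84 to 1725 ± 638 CPM (log2 fold change 1.52, SE 0.26, edgeR adjusted p = 0.00175), the largest rise of the 39 genes. Its log2 fold change stayed between 1.26 and 1.79 over the 19 alternatives run, with adjusted p no higher than 0.0110. KO 1, KO 2, KO 4 and KO 3 held Hspa5 in that descending order, and the summed dissociation genes fell in the same order, at 24402, 19429.8, 14556 and 11948 CPM, against 10679, 10074 and 8237 CPM in controls 1 to 3. This order was found in 6.21% of all genes tested and 10.8% of all rises. The part of dissociation stress in the Hspa5 rise was not tested.

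The other large chaperones were lower. Hsp90b1, which encodes GRP94, the ER Hsp90, stood at 475, 409 and 437 CPM in the controls and at 338, 344, 331 and 299 CPM in the KO libraries. Calr (ENSMUSG00000003814; chromosome 8, 84841850 to 84846934, minus strand), encoding the lumenal lectin chaperone calreticulin, stood at 862, 695 and 722 CPM in the controls and at 430.4, 515, 521 and 424 CPM in the KO libraries. Canx, encoding its membrane-bound counterpart calnexin, stood at 375, 431 and 417 CPM in the controls and at 167, 225, 276 and 179.8 CPM in the KO libraries. In each of these 3 genes every KO library was below every control, and the KO means were 1.34-, 1.61- and 1.92-fold lower. The log2 fold changes were -0.42 (SE 0.10), -0.68 (SE 0.13) and -0.94 (SE 0.17), with edgeR adjusted p-values of 0.00905, 0.00284 and 0.00209. The Hsp90b1 fall was not called in some alternatives (edgeR adjusted p = 0.181 with library totals and 0.0710 against a 1.2-fold change). Its exons share 10.3% of their bases with a pseudogene on the opposite strand, 1810014B01Rik, which held 540 counts in all libraries against 74471 for Hsp90b1.

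Ratios of raw counts within a library do not depend on scaling, and they show how far Hspa5 and its partners moved apart. Hspa5 had 1.26, 1.45 and 1.39 counts per Hsp90b1 count in the controls and 7.64, 5.18, 3.31 and 4.82 in the KO libraries. Per Calr count it had 0.693, 0.855 and 0.844 in the controls and 6.005, 3.46, 2.10 and 3.40 in the KO. Per Canx count the ratios were 1.59, 1.38 and 1.46 in the controls and 15.5, 7.91, 3.97 and 8.01 in the KO. For all 3 partners the lowest KO ratio, that of KO 3, was above the highest control ratio. The 39 genes together took 0.680, 0.662 and 0.684% of all counts in the controls and 0.822, 0.763, 0.683 and 0.691% in the KO libraries. Hspa5 made up 7.94, 7.86 and 8.20% of these ER counts in the controls and 34.5, 24.6, 16.7 and 23.6% in the KO. The other 38 genes took 0.626, 0.610 and 0.628% of all counts in the controls and 0.538, 0.575, 0.568 and 0.528% in the KO, so that every KO library was lower for the remainder.

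Per kilobase of annotated exon, which allows levels of different genes to be compared, Calr (264 ± 31.2 CPM per kb) and Pdia3 (243 ± 18.2) led in the controls, and their ranges overlapped. Ppp1r15a followed at 182 ± 24.9 CPM per kb. P4hb (149.8 ± 1.94), Rcn1 (148 ± 18.8) and Hspa5 (142 ± 1.85) came next, close to each other relative to the spread of Rcn1. In the KO the order of means was Hspa5 at 408 ± 151 CPM per kb, Ppp1r15a at 285 ± 80.0, Calr at 164 ± 18.3 and Pdia3 at 143 ± 19.2. Rcn1 moved from rank 5 to rank 9. Hspa13 and Derl3 were the lowest of the 39 in both groups.

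**Figure D3:**
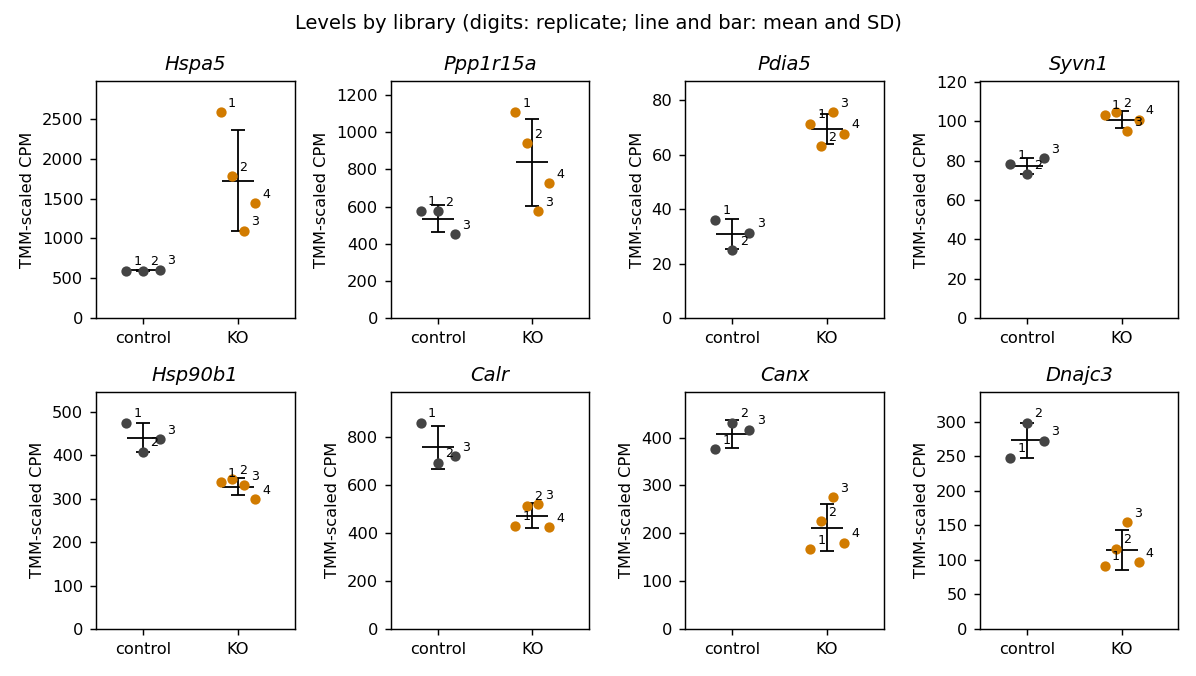
TMM-scaled CPM (vertical axes, from 0) of 8 ER genes in each control and KO library (points, with the replicate as a digit), with lines at the group mean and bars of 1 SD. Hspa5 rises from about 600.1 CPM to between 1094 and 2585 CPM, while the KO libraries of Calr, Canx and Dnajc3 all lie below the controls.

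A cis-element shared by chaperone promoters was looked up because these genes moved in opposite directions. The ER stress response element (ERSE) is bound by NF-Y at its CCAAT part and by ATF6 or XBP1 at its CCACG part. RefSeq promoter windows of 250 bases before to 50 after the start (GRCm38.p6) were given for 31 of the 39 genes, all but Atf6, Derl1, Hspa13, Hyou1, Manf, Ppp1r15b, Rcn1 and Sec61a1. The letters CCAAT and CCACG with 9 bases of any kind between them, searched on both strands, were found in 9 of the 31 genes (29.0%) and in 39 of 32851 windows of all genes (0.119%). The list was chosen as unfolded protein response genes, so a high share follows from that choice and is not a result of these data. The 31 genes have 32 windows, which are among the 32851. Of the 9 genes with a match 3 rose (Hspa5, Syvn1 and Creld2), 4 fell (Hsp90b1, Calr, Canx and Dnajc3) and Pdia6 and Derl3 did not pass. The stretches around the matches are shown 5′ to 3′ along the gene, with the fixed letters of the element in capitals, and they show that the same element stands before genes of each direction.
Hspa5: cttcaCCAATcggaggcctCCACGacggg
Syvn1: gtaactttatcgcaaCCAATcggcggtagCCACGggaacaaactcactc
Creld2: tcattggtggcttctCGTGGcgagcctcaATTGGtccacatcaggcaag
Hsp90b1: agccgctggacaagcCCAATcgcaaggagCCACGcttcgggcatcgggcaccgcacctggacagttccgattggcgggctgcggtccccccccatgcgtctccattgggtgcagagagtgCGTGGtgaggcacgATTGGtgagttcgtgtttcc
Calr: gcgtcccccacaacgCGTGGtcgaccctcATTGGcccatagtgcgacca
Canx: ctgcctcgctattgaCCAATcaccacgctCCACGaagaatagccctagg
Dnajc3: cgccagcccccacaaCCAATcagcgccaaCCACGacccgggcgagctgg
Pdia6: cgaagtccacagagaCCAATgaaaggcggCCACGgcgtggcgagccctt
Derl3: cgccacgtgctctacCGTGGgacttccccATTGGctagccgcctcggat
They lie at chr2:34772020-34772048 (plus strand), chr19:6046517-6046565 (plus strand), chr15:88819505-88819553 (plus strand), chr10:86705518-86705671 (minus strand), chr8:84847060-84847108 (minus strand), chr11:50325785-50325833 (minus strand), chr14:118937812-118937860 (plus strand), chr12:17266476-17266524 (plus strand) and chr10:75893227-75893275 (plus strand), all upstream of the RefSeq start of the gene named. In Hspa5 the GENCODE gene begins further upstream than the RefSeq start, and the stretch lies between these starts. CCAAT and CCACG in capitals mean a match along the gene, and CGTGG and ATTGG a match on the opposite strand. Hsp90b1 holds 2 copies, in opposite orientations. A match is a description of the letters and not a measured binding site.

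The related element ERSE-II, searched on both strands as ATTGG, any 1 base and CCACG, was found in 2 of the 31 genes, Herpud1 and Dnajb11, and in 12 of 32851 windows (0.0365%). For this element too, a high share follows from how the list was chosen. The Herpud1 match, at chr8:94386362-94386402 (plus strand), is shown because this gene fell.
Herpud1: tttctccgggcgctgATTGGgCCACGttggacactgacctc
In Dnajb11 the match lies just after the start. The Maf recognition element was searched as TGCTGA and TCAGCA with 1 or 2 bases between them, and each spacing is in 2 of 32851 windows (0.00609%) and in none of the 31 genes. Its TGCTGA core was in 5 of the 31 (16.1%) and in 19.5% of all windows. These counts cover only the letters searched in these windows.

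**Figure D4:**
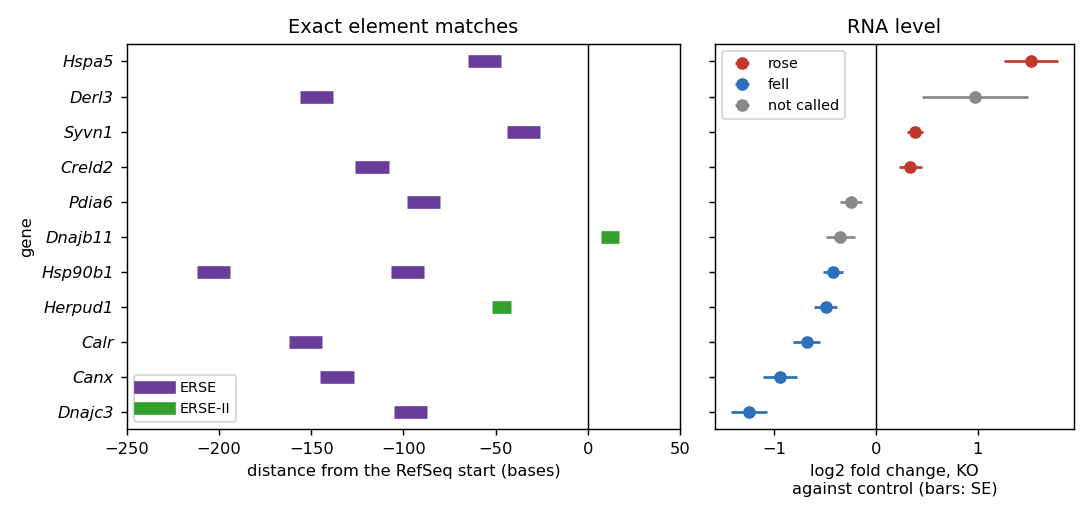
Left, distance from the RefSeq start in bases (horizontal axis) of each ERSE (purple) and ERSE-II (green) match in the 11 genes that hold one (vertical axis), and right, the log2 fold change of the same genes with bars of 1 SE, coloured by call. ERSE matches of the 3 rising genes span 26 to 126 bases before the start. Those of the 4 falling genes span 87 to 212 bases, so the ranges overlap. The rising Creld2 match (108 to 126) lies between falling matches, those of Canx (127 to 145) and Hsp90b1 (89 to 107).

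Of the J-domain partners of BiP in this class, 2 fell and 1 did not pass. Dnajc3 (ENSMUSG00000022136; chromosome 14, 118937976 to 118981697, plus strand), encoding p58IPK, a BiP co-chaperone, stood at 248, 299 and 273 CPM in the controls and at 91.3, 116, 155 and 96.4 CPM in the KO libraries. All KO libraries were below all controls, and Dnajc3 fell 2.38-fold (log2 fold change -1.25, SE 0.18, edgeR adjusted p = 0.000585). Hspa5 counts per Dnajc3 count went from 2.41, 1.99 and 2.23 in the controls to 28.3, 15.3, 7.07 and 14.9 in the KO. Dnajb9, encoding ERdj4, fell to 65.6% of the control mean (log2 fold change -0.61, SE 0.14, edgeR adjusted p = 0.00667), and its controls lay within 47.9 to 48.8 CPM. Dnajb11, encoding ERdj3, had a log2 fold change of -0.35 (edgeR adjusted p = 0.0713) and was called lower when KO 3 was left out (edgeR adjusted p = 0.0298 without KO 3). Sdf2l1, whose product works with ERdj3, had a log2 fold change of -0.09 (edgeR adjusted p = 0.623). Hyou1, encoding the GRP170 exchange factor of BiP, had a log2 fold change of -0.16 (edgeR adjusted p = 0.312). None of these 3 passed, and the directions of Hyou1 and Sdf2l1 turned with library totals.

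Both calcium-binding reticulocalbin genes fell, and Rcn1 had the largest fall of the 39. Rcn1 (ENSMUSG00000005973; chromosome 2, 105386291 to 105399319, minus strand) stood at 406, 521 and 493 CPM in the controls and at 136, 235, 249.7 and 159 CPM in the KO libraries. It fell 2.42-fold (log2 fold change -1.28, SE 0.21, edgeR adjusted p = 0.00140). Rcn2 stood at 87.6, 97.7 and 95.3 CPM in the controls and at 38.8, 50.8, 59.7 and 40.8 CPM in the KO libraries, without overlap, and fell 1.97-fold (log2 fold change -0.98, SE 0.14, edgeR adjusted p = 0.000736). Hspa13, a microsome-associated Hsp70-like gene, went down from 37.1 ± 2.28 to 22.4 ± 4.37 CPM (log2 fold change -0.72, SE 0.14, edgeR adjusted p = 0.00335). In all 3 genes KO 3 was the KO library nearest to the controls.

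Of the secreted ER stress proteins, Manf stood at 40.9, 44.0 and 43.4 CPM in the controls and at 49.7, 59.9, 55.4 and 55.4 CPM in the KO libraries. Its groups did not overlap, and it rose 1.29-fold (log2 fold change 0.37, SE 0.08, edgeR adjusted p = 0.00720). The test against a larger change did not call it (edgeR adjusted p = 0.108 against a 1.2-fold change), and its exons share 4.14% of their bases with Dcaf1 on the opposite strand. Creld2 stood at 29.6, 31.4 and 35.1 CPM in the controls and at 33.5, 40.5, 43.3 and 44.4 CPM in the KO libraries, where KO 1 lay inside the control range. The Creld2 rise (log2 fold change 0.34, SE 0.12, edgeR adjusted p = 0.0395) was lost on leaving out any library but control 3 or KO 1 (edgeR adjusted p = 0.132 without control 1, 0.124 without control 2, 0.0813 without KO 2, 0.0813 without KO 3 and 0.106 without KO 4).

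Of 7 disulfide genes, 1 rose (14.3%), 4 fell (57.1%) and 2 did not pass, where 23.0% of all genes rose and 22.2% fell. None of the 7 had overlapping groups, and the groups did not overlap in 50.3% of all genes tested. Pdia5 (ENSMUSG00000022844; chromosome 16, 35397312 to 35490873, minus strand), a protein disulfide isomerase, was the exception in direction. It stood at 36.2, 25.02 and 31.5 CPM in the controls and at 71.5, 63.1, 75.8 and 67.9 CPM in the KO libraries. Even the lowest KO library was above the highest control, and Pdia5 rose 2.25-fold (log2 fold change 1.17, SE 0.13, edgeR adjusted p = 0.000154). Its order over the KO libraries, with KO 3 highest and KO 2 lowest, differed from that of Hspa5.

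Pdia3, encoding ERp57, which works with calreticulin and calnexin, stood at 829.6, 728 and 734 CPM in the controls and at 372, 473, 514 and 436 CPM in the KO libraries. It fell 1.70-fold (log2 fold change -0.77, SE 0.13, edgeR adjusted p = 0.00163), and Pdia5 counts per Pdia3 count went from 0.0437, 0.0344 and 0.0429 in the controls to 0.192, 0.133, 0.147 and 0.156 in the KO. P4hb, encoding the founding disulfide isomerase, which is also a subunit of collagen prolyl 4-hydroxylase, fell 1.49-fold (log2 fold change -0.57, SE 0.14, edgeR adjusted p = 0.00816). Dnajc10, the reductase ERdj5 that serves ER degradation, stood at 157, 166 and 169 CPM in the controls and at 79.1, 89.9, 127 and 85.7 CPM in the KO libraries, with KO 3 well above the other 3. The groups did not overlap, and Dnajc10 fell 1.72-fold (log2 fold change -0.78, SE 0.15, edgeR adjusted p = 0.00328). Ero1l, the oxidase that recharges disulfide isomerases, stood at 32.7, 37.6 and 41.8 CPM in the controls and at 21.5, 20.9, 24.0 and 17.4 CPM in the KO libraries and fell 1.78-fold (log2 fold change -0.83, SE 0.13, edgeR adjusted p = 0.000858). Pdia4 and Pdia6 had log2 fold changes of -0.40 (edgeR adjusted p = 0.0905) and -0.25 (edgeR adjusted p = 0.0876), below the controls in every KO library but short of a call. Pdia4 was called lower when KO 3 was left out (edgeR adjusted p = 0.0323 without KO 3), and Pdia6 was called lower by DESeq2 (adjusted p = 0.0404).

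Of 6 sensor and factor genes, 1 rose, 3 fell and 2 did not pass. The 3 that fell were the 3 sensors themselves. Atf6 stood at 112, 135 and 120.0 CPM in the controls and at 60.0, 69.8, 78.8 and 53.8 CPM in the KO libraries and fell 1.86-fold (log2 fold change -0.90, SE 0.13, edgeR adjusted p = 0.000772). Ern1, encoding the IRE1 kinase and nuclease, stood at 56.9, 72.2 and 71.1 CPM in the controls and at 32.2, 43.9, 46.0 and 31.9 CPM in the KO libraries and fell 1.73-fold (log2 fold change -0.79, SE 0.15, edgeR adjusted p = 0.00309). Neither gene had overlapping groups. Eif2ak3, encoding the PERK kinase, stood at 56.3, 60.4 and 59.7 CPM in the controls and at 43.3, 44.9, 55.5 and 45.9 CPM in the KO libraries, so that KO 3 lay just below the lowest control. Its fall (log2 fold change -0.31, SE 0.10, edgeR adjusted p = 0.0290) was the smallest of the 19. It was lost with library totals and without each of 5 libraries (edgeR adjusted p = 0.677 with library totals, 0.0973 without control 2, 0.0797 without control 3, 0.0669 without KO 1, 0.0749 without KO 2 and 0.0737 without KO 4). Its exons share 8.05% of their bases with the opposite-strand model Gm43292.

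Xbp1, whose transcript IRE1 splices, stood at 101, 133 and 148 CPM in the controls and at 163, 158, 148 and 131 CPM in the KO libraries and did not pass (log2 fold change 0.24, SE 0.14, edgeR adjusted p = 0.184). With library totals it rose (log2 fold change 0.50, edgeR adjusted p = 0.0123). Gene counts do not separate its spliced from its unspliced transcript. Ppp1r15a encodes GADD34, which reverses the translational block set by PERK and is induced through ATF4, and it stood at 578, 576 and 450.5 CPM in the controls and at 1108, 941, 575 and 725 CPM in the KO libraries. KO 3 lay at the level of controls 1 and 2, and the groups overlapped. The rise of 1.57-fold (log2 fold change 0.65, SE 0.22, edgeR adjusted p = 0.0388) was lost on leaving out any library but KO 3 (edgeR adjusted p = 0.0699 without control 1, 0.0834 without control 2, 0.130 without control 3, 0.0731 without KO 1, 0.0837 without KO 2 and 0.0502 without KO 4). Its KO libraries had the same order as Hspa5 and the dissociation genes, whose part was not tested. The constitutive counterpart Ppp1r15b had a log2 fold change of -0.13 (edgeR adjusted p = 0.296).

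Of 10 ER degradation genes, 1 rose, 4 fell and 5 did not pass, and the partners of 1 ligase complex moved apart. Syvn1, encoding the membrane ubiquitin ligase HRD1, stood at 78.1, 73.0 and 81.1 CPM in the controls and at 103, 105, 94.9 and 101 CPM in the KO libraries. Sel1l, encoding the adaptor that holds HRD1 in its complex, stood at 212, 239 and 236 CPM in the controls and at 108, 123, 158 and 109.6 CPM in the KO libraries. Neither gene had overlapping groups, with Syvn1 1.303-fold higher (log2 fold change 0.38, SE 0.08, edgeR adjusted p = 0.00388) and Sel1l 1.84-fold lower (log2 fold change -0.88, SE 0.14, edgeR adjusted p = 0.00107). Syvn1 counts per Sel1l count, free of scaling, were 0.368, 0.305 and 0.344 in the controls and 0.956, 0.853, 0.600 and 0.919 in the KO. The Syvn1 rise was not called in the test against a larger change (edgeR adjusted p = 0.0714 against a 1.2-fold change), and its exons share 1.87% of their bases with Mrpl49 on the opposite strand.

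The other falls of this class were in genes of the same retrotranslocation pathway. Derl1, a derlin of the retrotranslocation channel, stood at 152, 156 and 144 CPM in the controls and at 73.3, 89.3, 108 and 75.4 CPM in the KO libraries and fell 1.74-fold (log2 fold change -0.80, SE 0.13, edgeR adjusted p = 0.00140). Os9, the lectin that brings glycoproteins to SEL1L, went down from 254 ± 13.5 to 168 ± 17.98 CPM (log2 fold change -0.59, SE 0.11, edgeR adjusted p = 0.00203). Herpud1, an ER membrane protein of the HRD1 complex, stood at 188, 233 and 230.4 CPM in the controls and at 166, 156, 158 and 136 CPM in the KO libraries, without overlap, and fell 1.41-fold (log2 fold change -0.50, SE 0.11, edgeR adjusted p = 0.00614), a call lost under another scaling (edgeR adjusted p = 0.0802 with library totals). Edem1, Edem2, Derl2 and Selenos had log2 fold changes of 0.06, -0.06, -0.11 and -0.22, with edgeR adjusted p from 0.214 to 0.588. Of these, Edem1 rose with library totals (edgeR adjusted p = 0.00924) and Selenos was called lower in lane 5 alone (edgeR adjusted p = 0.0484). Derl3 was nearly silent, with 5, 4 and 5 counts in the controls and 4, 19, 14 and 11 in the KO, and it passed the count filter only through the KO. It did not pass the test (log2 fold change 0.97, SE 0.52, edgeR adjusted p = 0.153) except when KO 1 was left out (edgeR adjusted p = 0.0473 without KO 1).

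Of the Sec61 channel, the small subunit gene Sec61b stood at 26.7, 23.2 and 21.1 CPM in the controls and at 32.8, 35.3, 29.5 and 37.9 CPM in the KO libraries, without overlap, and rose 1.43-fold (log2 fold change 0.52, SE 0.12, edgeR adjusted p = 0.00690). Sec61a1, encoding the pore subunit, had a log2 fold change of -0.29 (edgeR adjusted p = 0.0896) and was called lower when KO 3 was left out (edgeR adjusted p = 0.0138 without KO 3). Sec61b counts per Sec61a1 count were 0.234, 0.178 and 0.166 in the controls and 0.372, 0.325, 0.244 and 0.431 in the KO.

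The KO libraries were not equally far from the controls. KO 3 was the highest KO library in 17 of the 19 ER genes that fell (89.5%), and in 66.6% of all 3448 genes that fell. The pair KO 2 and KO 3 exceeded the pair KO 1 and KO 4 in 15 of the 19 (78.9%), and in 64.6% of all falls. The median log2 ratio of the 39 genes to their control means was -0.45 in KO 1, -0.25 in KO 2, -0.16 in KO 3 and -0.42 in KO 4. KO 2 and KO 3 also kept more Maf RNA and held less hepatocyte RNA than KO 1 and KO 4. The summed markers of endothelium in general had the same order as the ER medians. They stood at 10888 CPM in KO 3, 9257 in KO 2, 8438 in KO 4 and 8123 in KO 1. The summed sinusoidal markers had that order too. KO 3 was also the only KO library from lane 4. The part of any of these in the ER levels was not tested.

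A wider set of 148 ER genes in 9 lists, 145 of them tested, also fell more often than it rose: 12 rose (8.28%), 72 fell (49.7%) and 61 did not pass, where 23.0% of all genes rose and 22.2% fell. The median log2 fold change was -0.28. Without control 2 the rises numbered 7. With library totals 37 rose and 42 fell, where 41.1% of all genes rose and 12.8% fell. Among 30 other folding enzymes 17 fell and 1 rose, and with library totals 7 rose and 8 fell. The rise was Fkbp10, a prolyl isomerase that acts on collagen, 6.01-fold from 2.64 ± 0.601 to 15.8 ± 1.57 CPM (edgeR adjusted p = 1.57e-05), while Sumf1, which activates sulfatases, and the thioredoxin-related Tmx2 and Tmx4 were 2.32-, 1.87- and 1.84-fold lower. All 3 other members of the reticulocalbin family fell, namely Rcn3 (16.1-fold, edgeR adjusted p = 4.85e-05), Calu (1.79-fold) and Sdf4 (1.68-fold). Of 22 further ER degradation genes 14 fell and none rose, at a median of -0.35, and with library totals 4 rose and 9 fell. The glycan-removing enzyme gene Ngly1, Herpud2 and the ubiquitin-conjugating enzyme gene Ube2g2 were 1.57-, 1.56- and 1.58-fold lower. Of 24 further translocon and signal peptide genes 9 fell, with Spcs3 of the signal peptidase 1.87-fold lower, and 1 rose, Srp19 of the signal recognition particle (1.45-fold). With library totals 6 rose and 6 fell in this list.

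Of 12 oligosaccharyltransferase genes 6 fell and 2 rose, where 22.2% of all genes fell and 23.0% rose. With library totals 4 rose and 4 fell, where 41.1% of all genes rose and 12.8% fell. Magt1 and Tusc3, the alternative oxidoreductase subunits, were 1.99- and 1.84-fold lower, and Rpn1 1.49-fold. The rises were in Krtcap2 (edgeR adjusted p = 0.0346) and Ost4 (edgeR adjusted p = 0.0252), small subunits whose calls were each lost without control 2, control 3, KO 2 or KO 4 (edgeR adjusted p = 0.0624 to 0.131). Of 15 other regulators of the response 8 fell (53.3%) and 4 rose (26.7%), the rises near the 23.0% of all genes. With library totals 5 rose and 3 fell, where again 41.1% of all genes rose and 12.8% fell. Map3k5, the kinase ASK1 downstream of IRE1, rose 13.3-fold from 1.67 ± 0.210 to 22.3 ± 1.84 CPM (edgeR adjusted p = 2.26e-06), and Eif2s1, the initiation factor subunit that PERK phosphorylates, 1.36-fold. The other rises were the NF-Y subunit genes Nfya (1.26-fold, edgeR adjusted p = 0.0795 without control 1, 0.0932 without control 2 and 0.0581 without KO 2) and Nfyc, the latter named outside the rule after its value was seen (edgeR adjusted p = 0.0499). Crebrf, a regulator of CREB3, Tmbim6, encoding BAX inhibitor 1, and Wfs1, encoding wolframin, were 2.33-, 1.65- and 1.51-fold lower.

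The ATF4 and CHOP arm was the only 1 of the 9 further lists with a median above 0 on the TMM scale, at 0.29 over 9 tested genes. Of these 2 rose (22.2%), near the 23.0% of all genes, and 1 fell (11.1%, against 22.2% of all genes). With library totals this arm had 4 rises and 1 fall at a median of 0.56, where 41.1% of all genes rose and 12.8% fell. The medians of the further translocon list (0.08) and the collagen list (0.00222) were then above 0 as well, but below the 0.31 of all genes. Atf4 itself stood at 228, 226 and 192 CPM in the controls and at 377, 326, 208 and 257 CPM in the KO libraries and did not pass (log2 fold change 0.44, SE 0.19, edgeR adjusted p = 0.0888). Ddit3, encoding CHOP, did not pass either (log2 fold change 0.40, SE 0.21, edgeR adjusted p = 0.139). Atf3, which is also among the dissociation genes, rose 6.62-fold and Sesn2 1.61-fold, while Cebpb fell 2.27-fold.

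**Figure D5:**
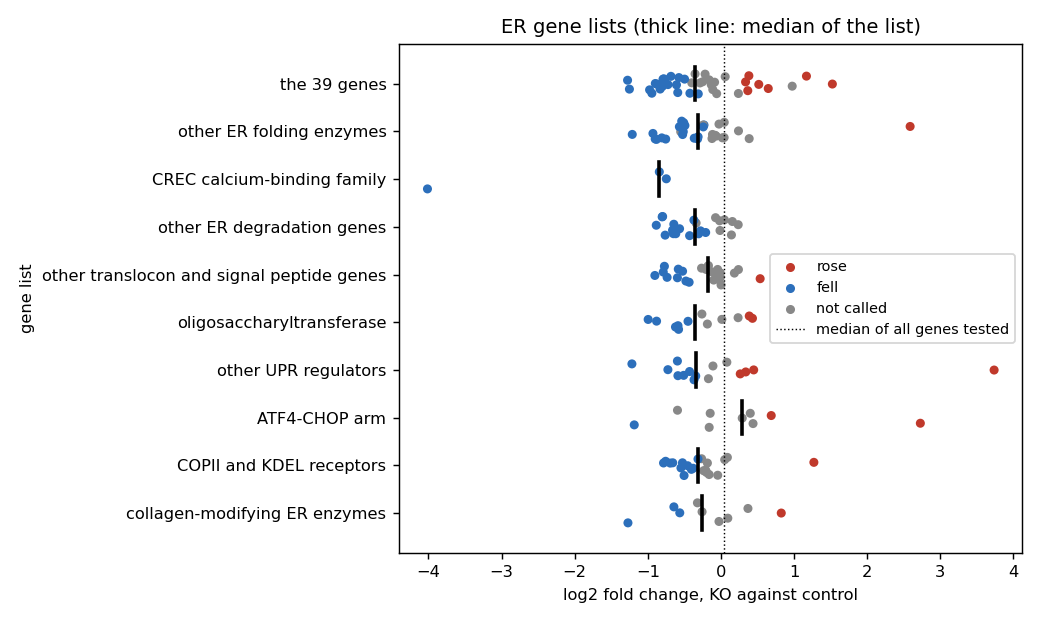
Log2 fold change of KO against control (horizontal axis) of each tested gene, coloured by call. Rows (vertical axis) are the 39 ER genes together and the 9 further ER lists. Thick lines mark the median of each row and the dotted line that of all genes tested. On the TMM scale shown, falls outnumber rises in every row except the ATF4-CHOP arm. With library totals they do not in the further translocon (6 rose and 6 fell), oligosaccharyltransferase (4 and 4) and collagen lists (3 and 3) and the other regulators (5 and 3). With that scaling 41.1% of all genes rose and 12.8% fell. The ATF4-CHOP arm then has 4 rises and 1 fall. Among the classes of the 39, not drawn apart, the sensors and factors then have 2 rises and 2 falls.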

How the data were processed

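Polyadenylated RNA was sequenced in 3 control and 4 KO libraries, grouped by the genotype in the labels. The authors deposited unnormalized read counts for Ensembl gene IDs, in a table of 52636 genes, of which 52403 had a symbol. All 7 columns matched a library. The submitters' processing notes name FastQC 0.11.5, STAR 2.7.6a and the build GRCm38. How reads were counted, on which annotation and with which strand setting, is not given in the sources used here. The labels' protocols name an unstranded and a stranded kit version, so reads of overlapping genes on opposite strands may not have been told apart. Libraries of a group differed by more than sampling noise (chi-square over its degrees of freedom, 13.22 to 96.09). In R 4.3.3, edgeR 4.0.16 was used to filter genes (filterByExpr, minimum 10 counts, total 15). Libraries were scaled by TMM (factors 0.8767 to 0.9211 in controls, 1.043 to 1.135 in the KO), and genes were tested with the quasi-likelihood F-test with Benjamini-Hochberg adjustment over 15512 genes at 0.05, after the test was tried on simulated data. Means are given ± SD (n = 3 controls and 4 KO). The SE of a log2 fold change is its size over the root of F. Positions are from GENCODE mouse release 21 and promoters from RefSeq. The ER genes and lists were chosen with earlier results of these data known. Every one of the 39 genes is accounted for, and of each further list up to 3 genes in each direction with the smallest p are named. Alternatives were library totals, DESeq2 size factors and upper-quartile factors, other filters, DESeq2 1.42.0, limma-voom (limma 3.58.1), a 1.2-fold threshold in the test, the lane, the replicate number as a block, and leaving out libraries.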

Additional observations from a re-analysis of the deposited data

Results flagged for a closer look

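In 76 genes named or listed here, each group of 4 KO libraries was screened for a library far from the other 3, a screen that marks about 1 in 20 groups by chance, and 2 genes were marked. Pdia6 had KO 1 at 168 CPM with the other 3 KO libraries between 198.0 and 198.3 CPM, so that the gap was 0.988 of the range. P4ha2, a collagen prolyl 4-hydroxylase subunit, had KO 1 at 20.4 CPM and the others at 25.6, 26.1 and 26.4 CPM, a gap of 0.854 of the range.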

How the results depend on the processing

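Over 19 alternatives none of the 26 called ER genes changed direction: 460 of 494 values kept their call and 34 lost it. Hspa5, Pdia5 and Sec61b among the 7 rises, and 16 of the 19 falls (all but Hsp90b1, Eif2ak3 and Herpud1), kept it in every alternative. Library totals gave 6370 rises and 1978 falls over all genes, 37 rises and 42 falls in the further ER lists, and a median of -0.0928 over the 39 ER genes. Upper-quartile factors gave 19 rises in the further lists, and the test against a 1.2-fold change called 3 rises among the 39. Without KO 1 and KO 4 there were 2234 rises over all genes, 46 falls in the further lists and a median of -0.195. Among uncalled genes, the log2 fold change turned positive with library totals in Hyou1 (0.0999), Sdf2l1 (0.180), Pdia6 (0.0132), Ppp1r15b (0.129), Edem2 (0.205), Derl2 (0.154) and Selenos (0.0471), with upper-quartile factors in Sdf2l1 (0.0394), Edem2 (0.0664) and Derl2 (0.0152), without KO 1 and KO 4 in Hyou1 (0.000647) and Edem2 (0.00217), and in Sdf2l1 without control 1 (0.00383) or KO 1 (0.00529), where its values with 1 library left out ran from -0.178 to 0.00529. Uncalled genes gained a call in 11 values: Xbp1 and Edem1 with library totals (edgeR adjusted p = 0.0123 and 0.00924), Dnajb11 and Pdia6 with DESeq2 (adjusted p = 0.0455 and 0.0404), Dnajb11, Selenos and Sec61a1 in lane 5 alone (edgeR adjusted p = 0.0456, 0.0484 and 0.0246), and Dnajb11, Pdia4 and Sec61a1 without KO 3 and Derl3 without KO 1, as given above. The cause was not tested. Leaving out 1 library at a time gave 2379 to 3769 rises and 2584 to 3930 falls over all genes, 5 to 7 rises and 18 to 22 falls among the 39, 7 to 13 rises and 51 to 77 falls in the further lists, and medians of -0.445 to -0.252. Whether the replicate numbers pair the libraries is not known. Correlations of deviations were -0.0133, 0.162 and 0.0674 for the same number and -0.176 to 0.0781 for different numbers, too few libraries to decide it. With the number as a block, where KO 4 has no partner, 2542 genes rose and 2627 fell, with 6 rises and 17 falls among the 39, 9 and 58 in the further lists and a median of -0.379. At 3 counts, a library's limit for a gene at 0 was 0.0873 to 0.132 CPM, and none of the 39 genes had a count of 0 in any library.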

Other observations

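The steps after folding and the collagen-specific enzymes of the ER also held more falls than rises on the TMM scale. Of 21 genes of COPII vesicles and KDEL receptors, which carry cargo to the Golgi and return chaperones from it, 11 fell and 1 rose. Over all genes 22.2% fell and 23.0% rose. With library totals 4 rose and 5 fell, where 41.1% of all genes rose and 12.8% fell. Sec24d, a cargo-binding coat subunit, fell 1.72-fold (log2 fold change -0.79, SE 0.13, edgeR adjusted p = 0.00117), Lman1, a cargo receptor for glycoproteins, 1.69-fold, and Sar1a, the GTPase that starts coat assembly, 1.46-fold. The rise was in the KDEL receptor gene Kdelr3, which stood at 0.364, 0.541 and 1.01 CPM in the controls and at 1.87, 1.47, 1.43 and 1.36 CPM in the KO libraries (edgeR adjusted p = 0.0164), a call lost on leaving out control 1 or control 2 (edgeR adjusted p = 0.0526 without control 1 and 0.0673 without control 2).

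Of 9 tested collagen-modifying genes 3 fell (33.3%) and 1 rose (11.1%), where 22.2% of all genes fell and 23.0% rose. With library totals 3 rose and 3 fell, where 41.1% of all genes rose and 12.8% fell. Serpinh1, the collagen chaperone HSP47, rose 1.77-fold, from 181 ± 19.4 to 320.3 ± 51.1 CPM (log2 fold change 0.82, SE 0.15, edgeR adjusted p = 0.00189). Plod1, a lysyl hydroxylase, fell 2.41-fold, Crtap 1.56-fold and P4ha2 1.48-fold. Over the same libraries 5 of 8 stellate cell and fibroblast markers fell, with the values given above, and their part in these levels was not tested.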
